A study of Homo sapiens with 12 samples.

Results

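The genes of DNA replication licensing and of the replication fork were followed in HCT116, a human cell line from a colorectal carcinoma, after loss of RNA polymerase I, loss of RNA polymerase II, or a block of transcription by actinomycin D. The 54 members were listed by symbol and found through their Ensembl identifiers. All 54 were among the 63241 genes of the deposited table, and all 54 passed the filter on low counts that left 23593 genes for testing. They were sorted into 8 groups by role, from the complex that marks origins to the enzymes that make deoxynucleotides.

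Total RNA was sequenced in 12 libraries, 3 per group. POLR1A-depleted cells came from an HCT116-POLR1A-AID line, in which the largest subunit of RNA polymerase I carries an auxin-inducible degron. They received 1 µg/ml doxycycline for 24 h before auxin to induce OsTIR1, the plant receptor that targets the tagged protein, and then 500 µM indole-3-acetic acid for 8 h. POLR2A-depleted cells came from an HCT116-POLR2A-AID2 line, with the degron on the largest subunit of RNA polymerase II, and were given 5-phenyl-indole-3-acetic acid at 1 µM for 8 h. Actinomycin D-treated cells were wild-type HCT116 given 5 µg/mL of this DNA-binding transcription inhibitor for 6 h. Control cells were wild-type HCT116 given DMSO for 8 h. The sample titles give these times, whereas the extraction protocol gives a harvest at 6 h. Neither degron line has a library without its ligand here, so effects of the line, of doxycycline, of the ligand and of the depletion cannot be told apart. By the titles, actinomycin D was given for 6 h and every other treatment for 8 h. In each comparison with actinomycin D, effects of the drug and of this difference in time cannot be told apart either. The 3 libraries of a group were dishes treated on the same day and described as technical replicates, so each p-value reflects the variation between dishes and no more. The comparisons address which transcripts change when either polymerase is lost, a question stated in the series' design text.

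Replication is licensed when the origin recognition complex, with CDC6 and CDT1, loads the MCM2-7 helicase onto origins as an inactive double ring. In S phase the DBF4-dependent kinase CDC7 and the factors that bring CDC45 and GINS turn that ring into the active helicase. The primase, the replicative polymerases and the clamp PCNA then act at the fork. Many of these genes are transcribed at the G1/S boundary under E2F transcription factors, and they are highly expressed in proliferating tumour lines such as HCT116.

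Library totals ran from 18797087 to 21802364 counts with POLR1A depleted, from 11289272 to 15037531 with POLR2A depleted, from 20302228 to 27394059 with actinomycin D and from 12235119 to 17535790 in controls. Levels are given as CPM, counts scaled to a library of 1e+06, after TMM scaling. They are therefore relative to the other RNA in the same library, and no spike-in is named in the sources used here. In bulk RNA, fewer cells in a stage of the cycle and less RNA per cell cannot be told apart. Of 7 colorectal epithelial markers, EPCAM and the keratins KRT8, KRT18 and KRT19 were at 105 CPM or more in every library, and VIL1 averaged at most 2.41 CPM. CDH1 averaged 24.9 CPM with POLR1A depleted, 68.1 CPM with POLR2A depleted, 119 CPM with actinomycin D and 85.8 CPM in controls. CDX2 averaged 11.4 CPM with POLR1A depleted, 8.56 CPM with POLR2A depleted, 2.11 CPM with actinomycin D and 15.6 CPM in controls. The sum of the 7 was 1924 to 2058 CPM in POLR1A-depleted cells, 2352 to 2561 CPM in POLR2A-depleted cells, 3198 to 3476 CPM in actinomycin D-treated cells and 3512 to 3979 CPM in control cells. The 6 markers of blood, stroma, endothelium and liver gave sums of 27.3 to 31.4 CPM in POLR1A-depleted cells, 27 to 31 CPM in POLR2A-depleted cells, 11.6 to 13.7 CPM in actinomycin D-treated cells and 9.71 to 11.4 CPM in control cells. COL1A2 and PTPRC averaged at most 1 CPM in any group. COL1A1 averaged 22.1 CPM with POLR1A depleted and 7.46 CPM in controls, CD68 7.11 CPM with POLR1A depleted and 2.7 CPM in controls, and PECAM1 7.92 CPM with POLR2A depleted and 0.163 CPM in controls. ALB averaged 4.6 CPM with POLR2A depleted and was at 0 in all 3 controls. The part of these differences in the results below was not tested. POLR1A mRNA averaged 148 ± 3.04 CPM in POLR1A-depleted and 237 ± 9.86 CPM in control cells, and POLR2A mRNA 1090 ± 19 CPM in POLR2A-depleted and 514 ± 46.4 CPM in control cells (SD, n = 3 each). Neither change was limited to its own line. POLR1A mRNA was also lower with POLR2A depleted, at 134 CPM, and with actinomycin D, at 191 CPM. POLR2A mRNA was also higher with POLR1A depleted, at 921 CPM, and averaged 585 CPM with actinomycin D, where libraries overlapped the controls. A degron removes protein, so these mRNA levels do not check the labels.

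With POLR1A depleted, most replication genes were lower. By edgeR's quasi-likelihood test with Benjamini-Hochberg adjustment over all 23593 genes, 43 of the 54 were lower than in controls, 5 were higher and 6 did not pass an adjusted p of 0.05. Over all genes tested, 18.6% were lower and 20.6% higher. The median log2 fold change of the 54 was -0.57, against 0.013 over all genes tested and 0.047 over the 7942 protein-coding genes within the members' range of average level. The falls were moderate, with 6 members down by at least a factor of 2. The 5 that were higher were the origin recognition subunits ORC3 and ORC4, the single-strand binding subunits RPA1 and RPA3 and the thymidylate synthase TYMS. This count dropped to 3, without ORC4 and RPA3, when POLR1A depletion replicate 3 or control replicate 1 was left out. The 6 that did not pass were GINS4, PRIM2, PCNA, RFC1, RRM1 and TK1, with log2 fold changes from -0.10 to 0.11, and their libraries overlapped the controls.

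With POLR2A depleted, 32 members were lower, 8 were higher and 14 did not pass, where 28.2% of all genes tested were lower and 33.2% higher. The median of the 54 was -0.25, against 0.0845 over all genes and -0.24 over the protein-coding genes of the members' level range. In that range 54.2% of genes were lower and 22.1% higher, against 59.3% and 14.8% of the members. The members' median and share lower thus stood close to those of coding genes of their level, with a smaller share higher. ORC3, GINS4, TICRR, RFC5, RPA1, RPA3, TYMS and TK1 were the 8 that were higher. Of the 14 that did not pass, log2 fold changes ran from -0.16 for CDC45 to 0.15 for PRIM2, whose adjusted p was 0.0509. PCNA was called lower although its libraries overlapped the controls, and PCNA, MCM5 and LIG1 lost that call under DESeq2 and in the fit of 2 groups. Single libraries also ended these calls, for PCNA POLR2A depletion replicate 1 or 2 or control replicate 2, for MCM5 POLR2A depletion replicate 3 or control replicate 2, and for LIG1 POLR2A depletion replicate 2 or control replicate 1.

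With actinomycin D, 28 of the 54 members were higher, 19 were lower and 7 did not pass, where 24.9% of all genes tested were higher and 28.5% lower. Among protein-coding genes of the members' level range 47% were higher and 34.2% lower, against 51.9% and 35.2% of the members, so the split was close to that of coding genes of their level. The median of the 54 was 0.18, against -0.061 over all genes and 0.13 over protein-coding genes of the members' level range. Members that were higher included all 6 helicase subunits and all 4 nucleotide-supply enzymes, and members that were lower included all 4 licensing factors. The 7 that did not pass were ORC4, GINS1, GINS2, POLA2, RFC1, RFC3 and CLSPN, with log2 fold changes from -0.18 to 0.10. CHAF1B was called lower although its libraries overlapped the controls, and it lost that call under DESeq2, under upper-quartile scaling, without the low-count filter, and without actinomycin D replicate 1 or 3 or control replicate 2 or 3. ORC1, also called lower, lost its call under upper-quartile scaling and without control replicate 2.

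These splits depend on how the libraries were scaled. Scaled to the 13 mitochondrial mRNAs, which RNA polymerases I and II do not transcribe, the median of all genes became 0.37 under POLR1A depletion, -0.20 under POLR2A depletion and 0.82 under actinomycin D. The members' counts then became 7 higher and 18 lower with POLR1A depleted, 0 higher and 39 lower with POLR2A depleted, and 45 higher and 4 lower with actinomycin D. The mitochondrial share of counts itself was 5.79 ± 0.214% with POLR1A depleted, 9.61 ± 0.88% with POLR2A depleted, 3.56 ± 0.0757% with actinomycin D and 7.3 ± 1.08% in controls (SD, n = 3 each). Whether any treatment, such as the DNA-binding actinomycin D, changed the mitochondrial mRNAs themselves was not tested. This scale is therefore not a known fixed reference. Under upper-quartile scaling the POLR2A comparison became 21 higher and 21 lower, and under library totals alone 12 higher and 27 lower, with 23 higher and 22 lower for actinomycin D. The difference between the members' median and that of all genes cannot test the scaling, because a change of scale shifts all genes nearly alike. It was -0.58 under POLR1A depletion, -0.33 under POLR2A depletion and 0.24 under actinomycin D as reported, and -0.59 under POLR1A depletion, -0.33 under POLR2A depletion and 0.27 under actinomycin D under mitochondrial scaling. Without the low-count filter, which adds genes to the median of all genes, it was -0.68 with POLR2A depleted, and in the fit of 2 groups it was 0.18 with actinomycin D.

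**Figure D1:**
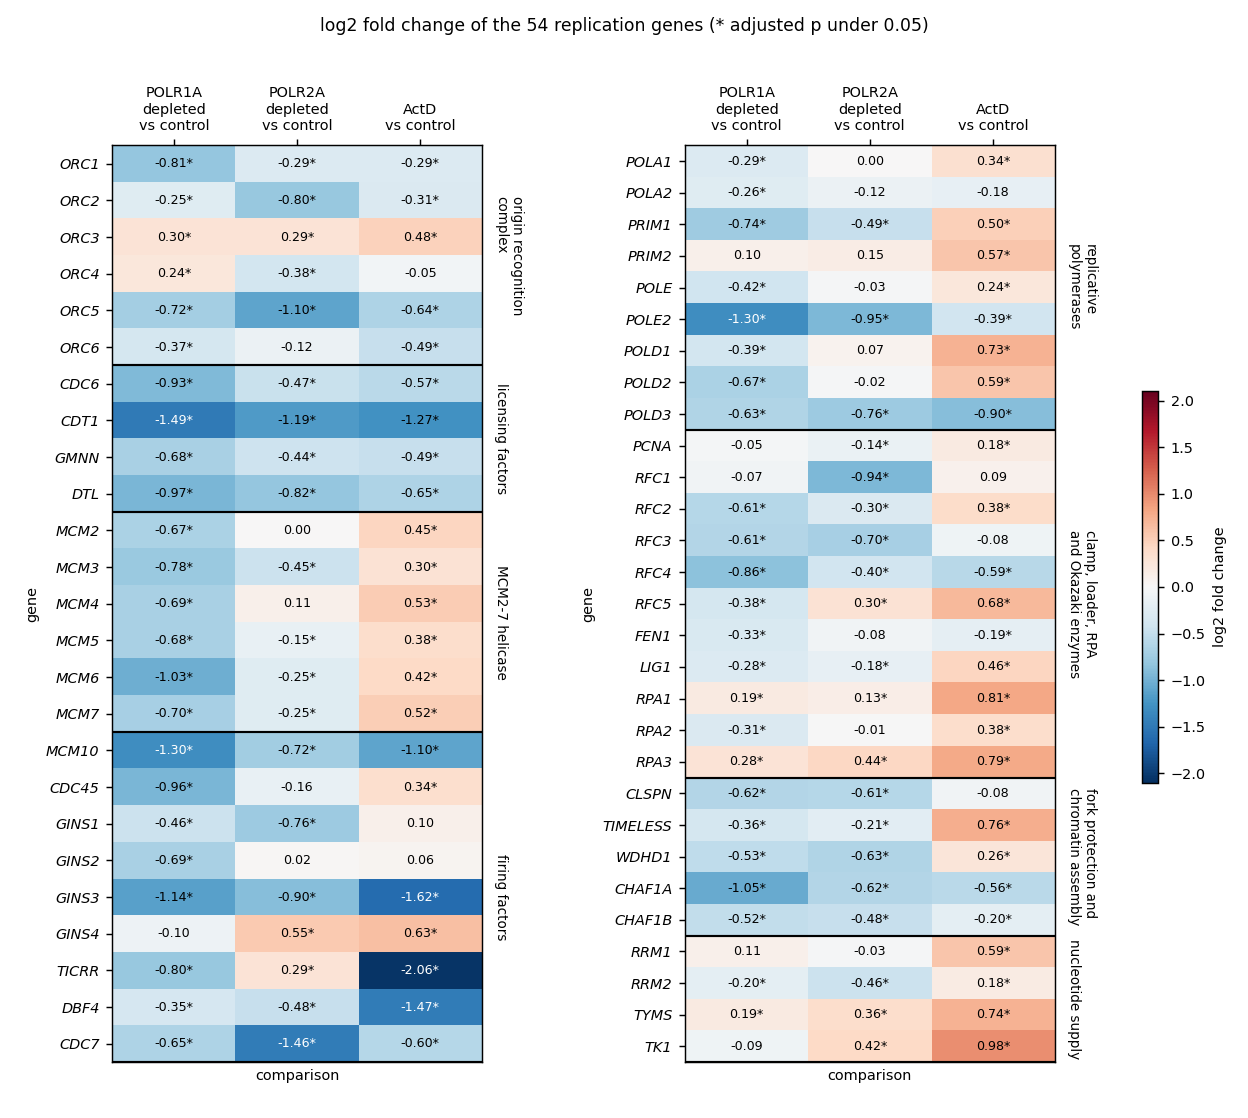
Log2 fold change against controls (colour and printed number) of each of the 54 genes (rows, grouped by role) with POLR1A depleted, POLR2A depleted and actinomycin D (columns); an asterisk marks an adjusted p under 0.05. The POLR1A column holds 43 genes called lower, whereas the actinomycin D column holds 28 called higher, among them the MCM2-7 block, and 19 called lower, among them the licensing block.

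Promoters were read from RefSeq windows on GRCh38.p14, from 250 bases before to 50 bases after the annotated start, and 48 of the 54 members had at least 1 window. The E2F words TTTCCCGC, TTTCGCGC, TTTGCCGC and TTTGGCGC, sought on both strands, were present for 22 of the 48 members and for 1090 of all 27305 genes with a window (45.8% of the members and 3.99% of all genes). The CCAAT box (CCAAT, both strands) was present for 29 of 48 members and 39.7% of all genes, and the cell cycle homology word TTTGAA for 2 of 48 members and 18.2% of all genes. The members' windows had a median GC content of 64.7%, against 58.7% over all windows. All 4 licensing factors and all 4 helicase subunits with a window held an E2F word, against 1 of 6 origin recognition genes. The windows of the pair of E2F-holding members with the largest falls under POLR1A depletion, CDT1 and POLE2, are shown with that of ORC3, the member with the highest log2 fold change there, with the E2F word in capitals, in the orientation of the gene.
CDT1 (chr16:88803539-88803838, plus strand): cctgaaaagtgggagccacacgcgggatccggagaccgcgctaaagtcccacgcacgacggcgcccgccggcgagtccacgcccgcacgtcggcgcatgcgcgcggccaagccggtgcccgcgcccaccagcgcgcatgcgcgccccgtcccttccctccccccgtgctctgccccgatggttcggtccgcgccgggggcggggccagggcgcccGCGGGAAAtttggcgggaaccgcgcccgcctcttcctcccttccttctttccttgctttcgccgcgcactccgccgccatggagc
POLE2 (chr14:49688165-49688464, minus strand): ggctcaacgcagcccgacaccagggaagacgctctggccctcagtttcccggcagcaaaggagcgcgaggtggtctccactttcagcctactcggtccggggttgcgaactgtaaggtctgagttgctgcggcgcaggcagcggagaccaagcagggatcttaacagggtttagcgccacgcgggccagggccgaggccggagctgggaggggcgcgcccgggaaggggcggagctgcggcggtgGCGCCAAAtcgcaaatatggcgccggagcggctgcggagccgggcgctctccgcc
ORC3 (chr6:87589885-87590184, plus strand): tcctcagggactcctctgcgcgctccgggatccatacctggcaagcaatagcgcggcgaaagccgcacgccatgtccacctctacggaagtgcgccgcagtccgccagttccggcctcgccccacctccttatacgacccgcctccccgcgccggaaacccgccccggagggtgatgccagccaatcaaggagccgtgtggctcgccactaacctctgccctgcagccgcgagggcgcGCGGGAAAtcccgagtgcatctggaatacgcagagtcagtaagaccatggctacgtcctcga
The word begins 35 bases before the start of CDT1, 5 bases before that of POLE2 and 12 bases before that of ORC3, and CDT1 and ORC3 hold the same word, GCGGGAAA. The 22 members with the word had a median log2 fold change of -0.66 under POLR1A depletion, with 19 lower and 2 higher, and the 26 without it a median of -0.38, with 20 lower and 2 higher. Among other protein-coding genes tested, 30.5% of the 718 with the word and 23.9% of the 11063 without it were lower. The medians of members with and without the word were -0.345 and -0.295 with POLR2A depleted, and 0.0786 and 0.136 with actinomycin D. A word in a window is a match of letters and not a measured binding site.

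For this and the other role groups below, protein-coding genes of the members' level range serve as the backdrop. Of these, 31.1% were lower and 37.1% higher with POLR1A depleted. With POLR2A depleted 54.2% were lower and 22.1% higher, and with actinomycin D 34.2% and 47%. Origin recognition genes were mostly lower, but not as a block. Of the 6, 4 were lower and 2 higher with POLR1A depleted, 4 lower and 1 higher with POLR2A depleted, and 4 lower and 1 higher with actinomycin D, and under mitochondrial scaling 1 was lower and 2 higher with POLR1A depleted, 5 lower and 0 higher with POLR2A depleted, and 0 lower and 5 higher with actinomycin D. Under upper-quartile scaling 2 were lower and 1 higher with POLR2A depleted. ORC5 encodes an ATP-binding subunit. Its libraries had 23.2, 23.2 and 23.5 CPM in POLR1A-depleted cells, 18.1, 18.3 and 17.2 CPM in POLR2A-depleted cells, 25.8, 22.4 and 25.6 CPM in actinomycin D-treated cells, against 36.7, 39 and 39.4 CPM in control cells. Every treated library lay below every control library, and the lowest were those with POLR2A depleted. The log2 fold change was -0.72 (SE 0.077, adjusted p = 1.03e-07) under POLR1A depletion, -1.10 (SE 0.081, adjusted p = 1.79e-10) under POLR2A depletion and -0.64 (SE 0.077, adjusted p = 2.69e-07) under actinomycin D. ORC1 encodes the subunit that recruits CDC6 and whose protein level varies most over the cell cycle. It had 31.1, 31 and 29.7 CPM in POLR1A-depleted cells, against 49.4, 60.9 and 50.1 CPM in control cells. The groups did not overlap, at -0.81 (SE 0.08, adjusted p = 3.54e-08). The ORC1 libraries had 42.8, 46.2 and 42.5 CPM in POLR2A-depleted cells and 41.6, 47.2 and 42.4 CPM in actinomycin D-treated cells, also below the controls. ORC2 encodes a core subunit. Its libraries had 38.4, 40.3 and 43.7 CPM in POLR2A-depleted cells, against 72.5, 67.6 and 73.4 CPM in control cells, with a log2 fold change of -0.80 (SE 0.068, adjusted p = 1.64e-09). The ORC2 libraries had 63.4, 54.8 and 61.1 CPM in POLR1A-depleted cells and 58.6, 56.6 and 56.9 CPM in actinomycin D-treated cells, also below the controls. ORC4, another ATP-binding subunit, moved apart between the depletions, with 41.4, 42.4 and 44.4 CPM in POLR1A-depleted cells, 26.8, 27.7 and 28.7 CPM in POLR2A-depleted cells, 32.9, 35.4 and 36.1 CPM in actinomycin D-treated cells, against 31.8, 38.1 and 38.1 CPM in control cells. Its POLR1A-depleted libraries were all above the controls and its POLR2A-depleted libraries all below them, at -0.38 (SE 0.08, adjusted p = 0.000284) with POLR2A depleted, and its actinomycin D libraries overlapped the controls. ORC6 encodes the smallest subunit, needed for helicase loading. It had 27.4, 26.3 and 28.2 CPM in POLR1A-depleted cells, 33.3, 32.3 and 31.3 CPM in POLR2A-depleted cells, 25.8, 22.9 and 26.9 CPM in actinomycin D-treated cells, against 36.2, 32.7 and 36.9 CPM in control cells. It changed by -0.37 (SE 0.078, adjusted p = 0.000573) with POLR1A depleted and by -0.49 (SE 0.079, adjusted p = 1.74e-05) with actinomycin D, both on the log2 scale, and its POLR2A-depleted libraries overlapped the controls. ORC3 encodes a core subunit that pairs with ORC2. Its libraries had 56.9, 57.3 and 50.6 CPM in POLR1A-depleted cells, 57, 54.2 and 53.1 CPM in POLR2A-depleted cells, 61.9, 62.2 and 63.4 CPM in actinomycin D-treated cells, against 42.1, 46.3 and 45.7 CPM in control cells. All 9 treated libraries lay above the controls, and the actinomycin D change was 0.48 (SE 0.064, adjusted p = 1.27e-06). ORC4 shares exon sequence on the opposite strand with ACVR2A and MBD5 in GENCODE 29, and since the strand setting of the counting is not given in the sources used here, such shared reads cannot be assigned.

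The 4 licensing factors were lower in all 3 comparisons, except that under mitochondrial scaling 2 of them were higher and 1 was lower with actinomycin D and 3 were lower with POLR1A depleted, and that under upper-quartile scaling 3 were lower with POLR2A depleted. Their median log2 fold change was -0.95 under POLR1A depletion, -0.64 under POLR2A depletion and -0.61 under actinomycin D. CDT1 (ENSG00000167513, chr16:88803213-88809258, plus strand, GRCh38) encodes a protein that delivers the helicase to origins. It had 43.7, 44.8 and 45.2 CPM in POLR1A-depleted cells, 55.5, 54.3 and 54.5 CPM in POLR2A-depleted cells, 52, 51.8 and 52.3 CPM in actinomycin D-treated cells, against 123, 134 and 118 CPM in control cells. The highest of the 9 treated libraries was at 55.5 CPM and the lowest control at 118 CPM. Its level was 2.81-fold lower with POLR1A depleted, 2.29-fold lower with POLR2A depleted and 2.41-fold lower with actinomycin D. The log2 fold changes were -1.49 (SE 0.056, adjusted p = 1.12e-14) under POLR1A depletion, -1.19 (SE 0.056, adjusted p = 1.4e-13) under POLR2A depletion and -1.27 (SE 0.055, adjusted p = 2.82e-14) under actinomycin D. CDC6 encodes the ATPase that recruits CDT1 to the origin recognition complex. Its libraries had 70.1, 72.4 and 73.2 CPM in POLR1A-depleted cells, 94.8, 98.7 and 105 CPM in POLR2A-depleted cells, 88.2, 91.7 and 97.5 CPM in actinomycin D-treated cells, against 130, 145 and 137 CPM in control cells. The POLR1A-depleted libraries were lowest, and the log2 fold changes were -0.93 (SE 0.057, adjusted p = 2.29e-11) under POLR1A depletion, -0.47 (SE 0.057, adjusted p = 4.25e-07) under POLR2A depletion and -0.57 (SE 0.057, adjusted p = 1.68e-08) under actinomycin D. DTL encodes the substrate receptor of the ubiquitin ligase that destroys CDT1 in S phase. It had 48.4, 46.1 and 46.3 CPM in POLR1A-depleted cells, 50.5, 54.3 and 51.1 CPM in POLR2A-depleted cells, 57.3, 57.3 and 60.3 CPM in actinomycin D-treated cells, against 87.4, 94.1 and 93.7 CPM in control cells. Here too all treated libraries lay below all controls, at -0.97 (SE 0.057, adjusted p = 1.23e-11) under POLR1A depletion, -0.82 (SE 0.058, adjusted p = 9.27e-11) under POLR2A depletion and -0.65 (SE 0.056, adjusted p = 1.88e-09) under actinomycin D. GMNN encodes geminin, the inhibitor that keeps CDT1 from relicensing origins, and had 23.7, 24 and 21.3 CPM in POLR1A-depleted cells, 28.7, 26.4 and 26.2 CPM in POLR2A-depleted cells, 26.8, 22.9 and 29.1 CPM in actinomycin D-treated cells, against 35.8, 37.5 and 36.9 CPM in control cells. It was called lower in each comparison, as was CDT1, the protein it inhibits.

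The 6 subunits of the MCM2-7 helicase moved together, and in opposite directions under POLR1A depletion and actinomycin D. With POLR1A depleted all 6 were lower, with log2 fold changes from -1.03 to -0.67, and with actinomycin D all 6 were higher, from 0.30 to 0.53, and both held under library totals, upper-quartile and mitochondrial scaling. With POLR2A depleted 4 were lower and MCM2 and MCM4 did not pass, but under upper-quartile scaling 3 were higher and 1 lower. MCM6 (ENSG00000076003, chr2:135839626-135876426, minus strand) had 91.2, 91.4 and 95.2 CPM in POLR1A-depleted cells, 162, 152 and 164 CPM in POLR2A-depleted cells, 258, 251 and 253 CPM in actinomycin D-treated cells, against 172, 204 and 191 CPM in control cells. The 4 groups did not overlap, with the POLR1A-depleted libraries lowest and the actinomycin D libraries highest. MCM6 changed by -1.03 (SE 0.057, adjusted p = 4.39e-12) with POLR1A depleted and by -0.25 (SE 0.056, adjusted p = 0.000626) with POLR2A depleted on the log2 scale. MCM3 had 153, 165 and 158 CPM in POLR1A-depleted cells, 197, 194 and 208 CPM in POLR2A-depleted cells, 331, 342 and 333 CPM in actinomycin D-treated cells, against 254, 294 and 270 CPM in control cells. Its changes were -0.78 (SE 0.055, adjusted p = 2.15e-10) under POLR1A depletion and -0.45 (SE 0.055, adjusted p = 4.29e-07) under POLR2A depletion. MCM7 had the highest level per kilobase of exon of the 6 in controls, at 87.6 CPM per kb. Its libraries had 234, 235 and 242 CPM in POLR1A-depleted cells, 329, 321 and 321 CPM in POLR2A-depleted cells, 551, 551 and 554 CPM in actinomycin D-treated cells, against 363, 412 and 377 CPM in control cells. The 3 actinomycin D libraries were within 3 CPM of each other and all above the controls, at 0.52 (SE 0.05, adjusted p = 8.81e-09), against -0.70 (SE 0.05, adjusted p = 2.52e-10) with POLR1A depleted and -0.25 (SE 0.05, adjusted p = 0.000206) with POLR2A depleted. MCM4 had 262, 257 and 257 CPM in POLR1A-depleted cells, 435, 470 and 445 CPM in POLR2A-depleted cells, 607, 597 and 594 CPM in actinomycin D-treated cells, against 389, 457 and 402 CPM in control cells, and MCM2 had 145, 157 and 160 CPM in POLR1A-depleted cells, 245, 236 and 252 CPM in POLR2A-depleted cells, 335, 339 and 330 CPM in actinomycin D-treated cells, against 237, 256 and 239 CPM in control cells. In both genes the POLR2A-depleted libraries overlapped the controls, and the actinomycin D libraries stood above them, at 0.53 (SE 0.055, adjusted p = 4.09e-08) for MCM4 and 0.45 (SE 0.051, adjusted p = 1.14e-07) for MCM2. MCM5 had 126, 123 and 131 CPM in POLR1A-depleted cells, 186, 181 and 182 CPM in POLR2A-depleted cells, 266, 264 and 262 CPM in actinomycin D-treated cells, against 186, 226 and 198 CPM in control cells, and showed the same order of groups, with POLR1A depletion lowest and actinomycin D highest. MCM2 shares exon sequence with an opposite-strand gene, TPRA1, and MCM7 with AP4M1.

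**Figure D2:**
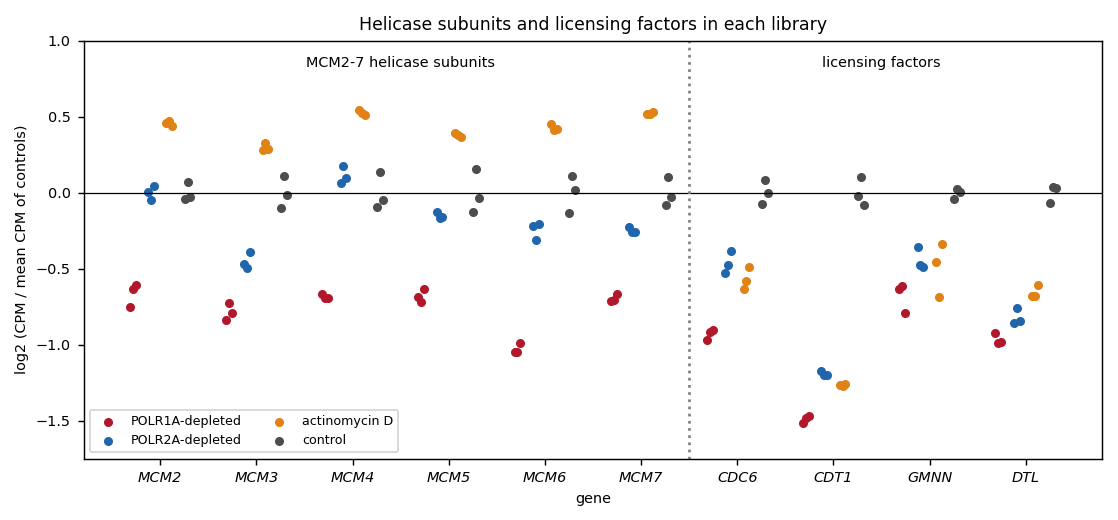
Log2 ratio of each library's CPM to the mean CPM of the 3 controls (vertical axis) for the 6 MCM2-7 subunits and the 4 licensing factors; points are single libraries coloured by group. For the helicase subunits the actinomycin D points lie above the controls and the POLR1A-depleted points below them, whereas for CDC6, CDT1, GMNN and DTL all treated points lie below the controls.

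Firing factors, which turn the loaded helicase into a working one, did not move as a block. Of the 9, 8 were lower with POLR1A depleted and GINS4 did not pass. With POLR2A depleted 5 were lower and 2 higher (55.6% and 22.2%). That was close to the 54.2% lower and 22.1% higher among protein-coding genes of the members' level range. With actinomycin D 5 were lower and 2 higher. Under mitochondrial scaling 4 were lower and 0 higher with POLR1A depleted, 6 lower and 0 higher with POLR2A depleted, and 3 lower and 4 higher with actinomycin D. TICRR (ENSG00000140534, chr15:89575482-89631056, plus strand) encodes treslin, which brings CDC45 to the helicase. It had 61.7, 57.2 and 58.7 CPM in POLR1A-depleted cells, 125, 128 and 126 CPM in POLR2A-depleted cells, 21.2, 27.2 and 25.3 CPM in actinomycin D-treated cells, against 107, 98.6 and 103 CPM in control cells. The 4 groups did not overlap: POLR2A-depleted libraries were above the controls, POLR1A-depleted libraries below them and actinomycin D libraries lowest. Under mitochondrial scaling its POLR2A value was -0.0066 with no call. With actinomycin D it was 4.16-fold lower, at -2.06 (SE 0.071, adjusted p = 6.04e-16), the furthest of any member in the 3 comparisons with controls. DBF4 encodes the regulatory subunit of the kinase that phosphorylates MCM proteins at firing. Its libraries had 63.4, 62.9 and 62.4 CPM in POLR1A-depleted cells, 63.5, 51.8 and 57.5 CPM in POLR2A-depleted cells, 30.5, 28.5 and 28.4 CPM in actinomycin D-treated cells, against 79.3, 80.1 and 81.8 CPM in control cells, and all treated libraries were below the controls. Under actinomycin D it was 2.76-fold lower, at -1.47 (SE 0.068, adjusted p = 7.35e-14). CDC7 (ENSG00000097046, chr1:91500893-91525764, plus strand) encodes the catalytic subunit of the same kinase. It had 32.9, 29.7 and 26.2 CPM in POLR1A-depleted cells, 19.5, 14 and 17.2 CPM in POLR2A-depleted cells, 30.8, 31.7 and 29.2 CPM in actinomycin D-treated cells, against 44.5, 44.8 and 49.8 CPM in control cells. It was lowest with POLR2A depleted, where it was 2.76-fold lower than in controls, at -1.46 (SE 0.11, adjusted p = 2.13e-10). As reported, the lowest DBF4 level was with actinomycin D and the lowest CDC7 level with POLR2A depleted. Under mitochondrial scaling DBF4 too was lowest with POLR2A depleted, but its difference between these 2 treatments had no call.

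MCM10 encodes a protein that helps the helicase separate its rings and start unwinding. Its libraries had 47.8, 50.6 and 51.6 CPM in POLR1A-depleted cells, 71.6, 71.4 and 81.6 CPM in POLR2A-depleted cells, 56.8, 58.3 and 57.2 CPM in actinomycin D-treated cells, against 118, 128 and 125 CPM in control cells. All treated libraries were below the controls, and the POLR1A change was -1.30 (SE 0.06, adjusted p = 2.82e-13). CDC45 encodes a subunit of the active helicase. It had 17.2, 13.5 and 15.7 CPM in POLR1A-depleted cells, 26.6, 26.5 and 27.9 CPM in POLR2A-depleted cells, 38, 37.5 and 39.1 CPM in actinomycin D-treated cells, against 32.7, 31.8 and 25.9 CPM in control cells. Its POLR1A-depleted libraries were below every other library, at -0.96 (SE 0.096, adjusted p = 3.92e-08), and its POLR2A-depleted libraries overlapped the controls. The GINS complex completes the active helicase, and its 4 subunits did not move alike. GINS3 had 15, 14.9 and 13.8 CPM in POLR1A-depleted cells, 16.1, 19.1 and 16.3 CPM in POLR2A-depleted cells, 9.16, 10.3 and 11.7 CPM in actinomycin D-treated cells, against 27.2, 37.1 and 31.5 CPM in control cells, and was lower in all 9 treated libraries, at -1.14 (SE 0.11, adjusted p = 4.3e-08) under POLR1A depletion, -0.90 (SE 0.12, adjusted p = 9.08e-07) under POLR2A depletion and -1.62 (SE 0.12, adjusted p = 1.22e-10) under actinomycin D. GINS1 had 60, 61.1 and 59.1 CPM in POLR1A-depleted cells, 48, 50.2 and 47.7 CPM in POLR2A-depleted cells, 89, 87.1 and 89.5 CPM in actinomycin D-treated cells, against 81.7, 79.4 and 86.3 CPM in control cells, and was lowest with POLR2A depleted, at -0.76 (SE 0.055, adjusted p = 1.5e-10). GINS2 had 40.1, 36.3 and 38.3 CPM in POLR1A-depleted cells, 61.3, 61.5 and 64.2 CPM in POLR2A-depleted cells, 64.4, 59.4 and 67.9 CPM in actinomycin D-treated cells, against 57.8, 65.4 and 61 CPM in control cells, and its POLR1A-depleted libraries lay below all the others. GINS4 had 31.7, 29.1 and 34.7 CPM in POLR1A-depleted cells, 51.3, 49.3 and 49.8 CPM in POLR2A-depleted cells, 52.4, 49.9 and 56.2 CPM in actinomycin D-treated cells, against 32.9, 35.4 and 34.3 CPM in control cells, with the POLR2A-depleted and actinomycin D libraries above the controls. TICRR shares exon sequence with the opposite-strand gene KIF7 and DBF4 with SLC25A40, and DBF4 has 1 named pseudogene.

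**Figure D3:**
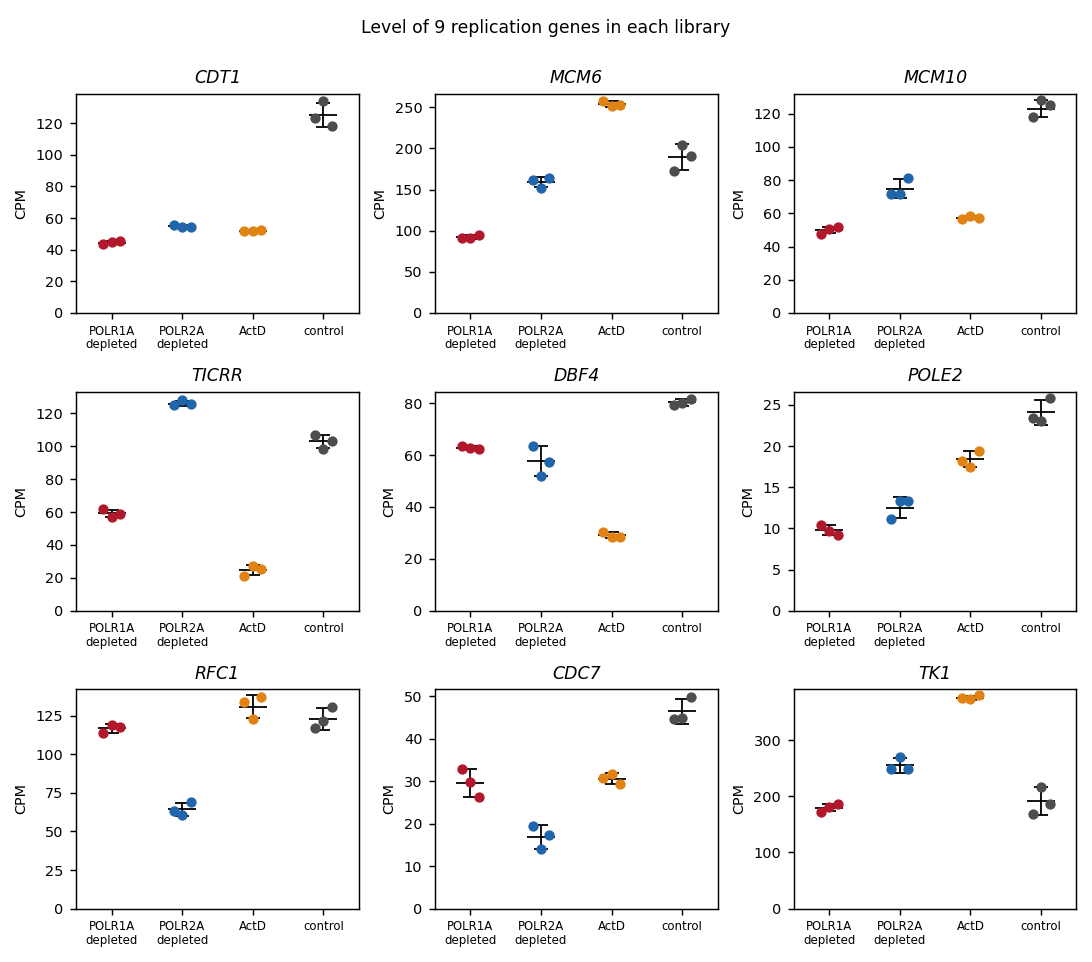
CPM (vertical axes, from 0) of CDT1, MCM6, MCM10, TICRR, DBF4, POLE2, RFC1, CDC7 and TK1 in each library; points are libraries, and the horizontal bar and whiskers are the mean and SD of 3 libraries per group. TICRR is lowest with actinomycin D and highest with POLR2A depleted, CDC7 and RFC1 are lowest with POLR2A depleted, and TK1 is highest with actinomycin D.

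Genes of the primase and replicative polymerases were lower with POLR1A depleted in 8 of 9 cases, and higher with actinomycin D in 6 of 9, with 2 lower; under mitochondrial scaling the POLR1A count became 2 lower and 1 higher and the actinomycin D count 0 lower and 8 higher. With POLR2A depleted 3 were lower and 6 did not pass, but under upper-quartile scaling 3 were lower and 5 higher, and under mitochondrial scaling 6 were lower and 0 higher. POLE2 (ENSG00000100479, chr14:49643555-49688422, minus strand) encodes the B subunit of polymerase epsilon, the leading-strand enzyme. Its libraries had 10.4, 9.69 and 9.26 CPM in POLR1A-depleted cells, 11.1, 13.3 and 13.3 CPM in POLR2A-depleted cells, 18.2, 17.5 and 19.4 CPM in actinomycin D-treated cells, against 23.4, 23.1 and 25.8 CPM in control cells. All treated libraries lay below the controls, and it was 2.46-fold lower with POLR1A depleted, at -1.30 (SE 0.10, adjusted p = 1.04e-09), and 1.93-fold lower with POLR2A depleted, at -0.95 (SE 0.10, adjusted p = 7.87e-08). POLE encodes the catalytic subunit of the same enzyme. It had 161, 157 and 155 CPM in POLR1A-depleted cells, 199, 214 and 207 CPM in POLR2A-depleted cells, 235, 271 and 242 CPM in actinomycin D-treated cells, against 216, 210 and 207 CPM in control cells, a much smaller span of values in which the POLR2A-depleted libraries overlapped the controls. PRIM1 encodes the catalytic primase that starts each Okazaki fragment. Its libraries had 24.6, 26.6 and 25.9 CPM in POLR1A-depleted cells, 31.8, 29.4 and 30.7 CPM in POLR2A-depleted cells, 66.7, 57.7 and 58.1 CPM in actinomycin D-treated cells, against 42.5, 44.2 and 42.2 CPM in control cells. It was lower in both depletions, at -0.74 (SE 0.072, adjusted p = 2.78e-08) under POLR1A depletion and -0.49 (SE 0.074, adjusted p = 6.85e-06) under POLR2A depletion, and its actinomycin D libraries were all above the controls. POLD2 encodes the accessory subunit of the lagging-strand polymerase delta. It had 104, 99.5 and 99.2 CPM in POLR1A-depleted cells, 156, 166 and 153 CPM in POLR2A-depleted cells, 243, 242 and 241 CPM in actinomycin D-treated cells, against 164, 167 and 151 CPM in control cells, with changes of -0.67 (SE 0.052, adjusted p = 8.07e-10) under POLR1A depletion and 0.59 (SE 0.051, adjusted p = 1.98e-09) under actinomycin D. POLD1 encodes the catalytic subunit of polymerase delta. Its libraries had 47.5, 55 and 53.5 CPM in POLR1A-depleted cells, 70.2, 73.5 and 69.8 CPM in POLR2A-depleted cells, 113, 112 and 113 CPM in actinomycin D-treated cells, against 72.3, 72.7 and 59.2 CPM in control cells, and it was higher with actinomycin D at 0.73 (SE 0.07, adjusted p = 1.07e-08). POLD3, a further subunit of polymerase delta, went the other way under actinomycin D, with 19.9, 18.4 and 21.5 CPM in POLR1A-depleted cells, 19, 16.9 and 18.8 CPM in POLR2A-depleted cells, 15.7, 16.4 and 17.5 CPM in actinomycin D-treated cells, against 28.5, 31.8 and 31.9 CPM in control cells. It was lower in all treated libraries, at -0.76 (SE 0.092, adjusted p = 3.8e-07) under POLR2A depletion and -0.90 (SE 0.09, adjusted p = 2.03e-08) under actinomycin D, although the actinomycin D value became 0.028 under mitochondrial scaling. The 3 remaining genes encode subunits of polymerase alpha-primase. POLA1 averaged 81.3 ± 0.426 CPM under POLR1A depletion, 99.2 ± 3.06 CPM under POLR2A depletion, 125 ± 3.79 CPM under actinomycin D and 99 ± 3.2 CPM in controls (SD, n = 3 here and in the next 2 genes). POLA2 averaged 28.4 ± 1.18 CPM under POLR1A depletion, 31.3 ± 2 CPM under POLR2A depletion, 30.1 ± 0.594 CPM under actinomycin D and 34.2 ± 5.93 CPM in controls. PRIM2 averaged 59.1 ± 4.03 CPM under POLR1A depletion, 61.2 ± 1.87 CPM under POLR2A depletion, 81.8 ± 1.47 CPM under actinomycin D and 54.8 ± 4.53 CPM in controls. Of these, POLA1 and POLA2 were called lower with POLR1A depleted, and POLA1 and PRIM2 higher with actinomycin D. The POLA2 call was lost under library totals, in the fit of 2 groups, without any 1 of the 3 POLR1A depletion replicates and without control replicate 1, and POLA1 and POLA2 both turned higher, with no call, under mitochondrial scaling.

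Among the 11 genes of the clamp, its loader, the single-strand binding protein RPA and Okazaki fragment processing, 7 were lower and 2 higher with POLR1A depleted, 6 lower and 3 higher with POLR2A depleted, and 2 lower and 7 higher with actinomycin D. Under mitochondrial scaling these became 1 lower and 2 higher with POLR1A depleted, 7 lower and 0 higher with POLR2A depleted, and 0 lower and 11 higher with actinomycin D. Under upper-quartile scaling the POLR2A split became 2 lower and 6 higher. As reported, that split was 54.5% lower and 27.3% higher. Protein-coding genes of the members' level range were near it, at 54.2% and 22.1%. RFC1 (ENSG00000035928, chr4:39287456-39366375, minus strand) encodes the large subunit of the complex that opens PCNA and places it on DNA. It had 114, 119 and 118 CPM in POLR1A-depleted cells, 63, 60.9 and 69.3 CPM in POLR2A-depleted cells, 134, 123 and 137 CPM in actinomycin D-treated cells, against 117, 122 and 131 CPM in control cells. Its POLR2A-depleted libraries stood apart from all others, 1.92-fold below the controls, at -0.94 (SE 0.062, adjusted p = 3.06e-11), and the other treated libraries overlapped the controls. Of the small loader subunits, RFC2, RFC3 and RFC4 were lower in both depletions, although RFC2 and RFC4 lost their POLR2A calls under upper-quartile scaling and RFC2 and RFC3 their POLR1A calls under mitochondrial scaling. RFC4 had 30.6, 34.7 and 35.9 CPM in POLR1A-depleted cells, 50.5, 41.9 and 47.1 CPM in POLR2A-depleted cells, against 55.6, 64.9 and 63.2 CPM in control cells, at -0.86 (SE 0.08, adjusted p = 1.22e-08) with POLR1A depleted. RFC2 had 42.3, 42.7 and 43.4 CPM in POLR1A-depleted cells, 52.4, 49.4 and 57.1 CPM in POLR2A-depleted cells, against 65.3, 67.9 and 62.1 CPM in control cells, at -0.61 (SE 0.063, adjusted p = 6.89e-08) with POLR1A depleted. RFC3 had 42.6, 40.2 and 37 CPM in POLR1A-depleted cells, 34.9, 38.2 and 39.6 CPM in POLR2A-depleted cells, 60.4, 54.5 and 57.8 CPM in actinomycin D-treated cells, against 60.7, 63.5 and 58.6 CPM in control cells, at -0.61 (SE 0.069, adjusted p = 2.45e-07) with POLR1A depleted and -0.70 (SE 0.071, adjusted p = 2.76e-08) with POLR2A depleted. In all 3 of these subunits every depleted library lay below the controls. In actinomycin D-treated cells RFC2 had 88, 81 and 86.2 CPM, above the controls, and RFC4 had 40.5, 39.7 and 42.1 CPM, below them. RFC5 encodes the other small subunit. Its libraries had 62.4, 59.2 and 62.3 CPM in POLR1A-depleted cells, 103, 93.9 and 95.4 CPM in POLR2A-depleted cells, 122, 126 and 134 CPM in actinomycin D-treated cells, against 75.7, 83 and 79.7 CPM in control cells, above the controls with POLR2A depleted and with actinomycin D, at 0.68 (SE 0.057, adjusted p = 1.34e-09) in the last.

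RPA coats single-stranded DNA, and its large and small subunits were higher in all 3 comparisons, except that RPA1 turned lower and neither passed with POLR2A depleted under mitochondrial scaling. The POLR2A call of RPA1 was also lost without the low-count filter, in the fit of 2 groups, without any 1 of the 3 POLR2A depletion replicates and without control replicate 1 or 3. The POLR1A call of RPA3 was also lost under DESeq2, without POLR1A depletion replicate 1 or 3 and without control replicate 1. RPA1 had 185, 187 and 183 CPM in POLR1A-depleted cells, 179, 172 and 182 CPM in POLR2A-depleted cells, 285, 287 and 284 CPM in actinomycin D-treated cells, against 150, 168 and 168 CPM in control cells, with a change of 0.81 (SE 0.051, adjusted p = 1.1e-11) under actinomycin D. RPA3 had 27.4, 23.3 and 25.3 CPM in POLR1A-depleted cells, 28.7, 28.7 and 27.1 CPM in POLR2A-depleted cells, 39.9, 31.8 and 36.7 CPM in actinomycin D-treated cells, against 17.9, 21.8 and 22.5 CPM in control cells, with changes of 0.44 (SE 0.10, adjusted p = 0.000771) with POLR2A depleted and 0.79 (SE 0.098, adjusted p = 4.41e-07) with actinomycin D. RPA2 encodes the middle subunit. It had 51.8, 55.7 and 53.4 CPM in POLR1A-depleted cells, 65.4, 67.5 and 64.9 CPM in POLR2A-depleted cells, 86.7, 86.1 and 85.8 CPM in actinomycin D-treated cells, against 58.6, 72.8 and 67.3 CPM in control cells, and was lower with POLR1A depleted. PCNA, the sliding clamp and the member with the highest level per kilobase of exon in controls (148 CPM per kb), had 212, 208 and 211 CPM in POLR1A-depleted cells, 198, 188 and 208 CPM in POLR2A-depleted cells, 256, 237 and 246 CPM in actinomycin D-treated cells, against 204, 236 and 212 CPM in control cells. Its actinomycin D libraries were all above the controls, and it was called higher there, but not under library totals or in the fit of 2 groups. FEN1, the nuclease that trims Okazaki fragment flaps, averaged 114 ± 6.12 CPM under POLR1A depletion, 135 ± 10.6 CPM under POLR2A depletion, 125 ± 4.02 CPM under actinomycin D and 142 ± 9.12 CPM in controls (SD, n = 3 each). LIG1, the ligase that seals the fragments, averaged 62.2 ± 1.15 CPM under POLR1A depletion, 66.8 ± 4.93 CPM under POLR2A depletion, 104 ± 5.89 CPM under actinomycin D and 75.6 ± 4.52 CPM in controls (SD, n = 3 each). FEN1 was called lower and LIG1 higher with actinomycin D, and both were called lower with POLR1A depleted. The actinomycin D call of FEN1 was lost under DESeq2, under upper-quartile scaling, without the low-count filter, without actinomycin D replicate 2 or 3 and without control replicate 2, and FEN1 turned higher under mitochondrial scaling. With POLR1A depleted, FEN1 and LIG1 both turned higher, with no call, under mitochondrial scaling. PCNA and RPA2 each have 3 named pseudogenes, and RPA3 shares exon sequence with the opposite-strand gene UMAD1, so reads could be split between them.

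The 5 genes of fork protection and chromatin assembly were all lower in both depletions, and 2 were lower and 2 higher with actinomycin D. Under mitochondrial scaling 1 was lower with POLR1A depleted and all 5 were higher with actinomycin D, and under upper-quartile scaling 4 were lower with POLR2A depleted. CHAF1A encodes the large subunit of the histone chaperone that follows PCNA. Its libraries had 39, 44.8 and 43.3 CPM in POLR1A-depleted cells, 58.4, 57.4 and 56.1 CPM in POLR2A-depleted cells, 57, 64.9 and 57.1 CPM in actinomycin D-treated cells, against 82.3, 94.8 and 86.7 CPM in control cells. All 9 treated libraries were below the controls, at -1.05 (SE 0.07, adjusted p = 7.98e-11) under POLR1A depletion, -0.62 (SE 0.07, adjusted p = 1.41e-07) under POLR2A depletion and -0.56 (SE 0.069, adjusted p = 4.11e-07) under actinomycin D. Its partner CHAF1B had 30.7, 29.2 and 31.5 CPM in POLR1A-depleted cells, 32.8, 30.5 and 31 CPM in POLR2A-depleted cells, 35.5, 39.9 and 38.6 CPM in actinomycin D-treated cells, against 39.7, 48.4 and 42.9 CPM in control cells, a smaller spread. CLSPN encodes claspin, which passes the checkpoint signal from stalled forks to CHK1, and had 63.8, 70.2 and 73.3 CPM in POLR1A-depleted cells, 68, 67.6 and 74.5 CPM in POLR2A-depleted cells, 98.3, 106 and 97.8 CPM in actinomycin D-treated cells, against 96.2, 111 and 112 CPM in control cells. The depleted libraries lay below the controls, at -0.62 (SE 0.067, adjusted p = 1.22e-07) under POLR1A depletion and -0.61 (SE 0.069, adjusted p = 1.31e-07) under POLR2A depletion, and the actinomycin D libraries overlapped them. WDHD1 encodes a protein that ties polymerase alpha to the helicase. It had 60.5, 59.8 and 58 CPM in POLR1A-depleted cells, 51, 54.7 and 61.4 CPM in POLR2A-depleted cells, 102, 106 and 99.7 CPM in actinomycin D-treated cells, against 83.5, 87.2 and 86.9 CPM in control cells. It was lower in both depletions and higher with actinomycin D, at -0.53 (SE 0.061, adjusted p = 2.93e-07) under POLR1A depletion, -0.63 (SE 0.063, adjusted p = 2.01e-08) under POLR2A depletion and 0.26 (SE 0.06, adjusted p = 0.000988) under actinomycin D. The actinomycin D call of WDHD1 was lost under library totals. TIMELESS encodes a fork protection factor. Its libraries had 74.9, 72 and 74 CPM in POLR1A-depleted cells, 78.5, 84.2 and 82.5 CPM in POLR2A-depleted cells, 157, 168 and 155 CPM in actinomycin D-treated cells, against 91.8, 98.6 and 94 CPM in control cells, with the actinomycin D libraries far above all others, at 0.76 (SE 0.052, adjusted p = 5.72e-11) against controls.

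Enzymes of nucleotide supply were higher with actinomycin D in all 4 cases, and in 3 under library totals. With POLR1A depleted 1 was lower, 1 higher and 2 did not pass, which became 0 lower and 2 higher under mitochondrial scaling. With POLR2A depleted 1 was lower and 2 were higher, which became 2 lower and 0 higher under mitochondrial scaling. TK1 encodes the thymidine kinase of the salvage route. It had 172, 181 and 186 CPM in POLR1A-depleted cells, 248, 271 and 248 CPM in POLR2A-depleted cells, 375, 374 and 380 CPM in actinomycin D-treated cells, against 168, 217 and 187 CPM in control cells. Its actinomycin D libraries were 1.97-fold above the controls, at 0.98 (SE 0.07, adjusted p = 3.61e-10), and its POLR2A-depleted libraries were also above them, at 0.42 (SE 0.07, adjusted p = 3.57e-05). TYMS encodes the enzyme that makes thymidylate, a target of 5-fluorouracil. Its libraries had 188, 182 and 188 CPM in POLR1A-depleted cells, 222, 195 and 213 CPM in POLR2A-depleted cells, 276, 265 and 275 CPM in actinomycin D-treated cells, against 162, 167 and 161 CPM in control cells. It was above the controls in all 9 treated libraries, at 0.19 (SE 0.051, adjusted p = 0.0055) under POLR1A depletion, 0.36 (SE 0.051, adjusted p = 2.95e-06) under POLR2A depletion and 0.74 (SE 0.051, adjusted p = 5.68e-11) under actinomycin D. RRM1 encodes the large subunit of ribonucleotide reductase. It had 196, 204 and 201 CPM in POLR1A-depleted cells, 186, 175 and 184 CPM in POLR2A-depleted cells, 281, 276 and 282 CPM in actinomycin D-treated cells, against 167, 201 and 190 CPM in control cells, and only its actinomycin D libraries stood clear of the controls, at 0.59 (SE 0.057, adjusted p = 1.17e-08). RRM2 encodes the small subunit that sets reductase activity in S phase. Its libraries had 380, 370 and 387 CPM in POLR1A-depleted cells, 329, 310 and 314 CPM in POLR2A-depleted cells, 496, 485 and 500 CPM in actinomycin D-treated cells, against 431, 442 and 435 CPM in control cells. It was lower in both depletions, at -0.20 (SE 0.045, adjusted p = 0.00103) under POLR1A depletion and -0.46 (SE 0.046, adjusted p = 2.23e-08) under POLR2A depletion, and higher with actinomycin D, although the POLR1A value became 0.14 under mitochondrial scaling. TYMS shares exon sequence with its antisense neighbours ENOSF1 and TYMSOS, and RRM2 has 3 named pseudogenes.

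The treatments were also compared with each other in the same fit. POLR1A-depleted cells had 32 members lower than POLR2A-depleted cells and 8 higher, where 33.2% of all genes tested were lower and 29.1% higher. Among protein-coding genes of the members' level range 20% were lower and 56.6% higher, against 59.3% and 14.8% of the members. Under mitochondrial scaling this split became 1 lower and 34 higher, and under upper-quartile scaling 46 lower and 4 higher, so its direction rests on the scale. As reported, TICRR was furthest down, at -1.09 (SE 0.067, adjusted p = 7.74e-12), followed by CDC45 at -0.81 (SE 0.097, adjusted p = 3.29e-07), MCM4 at -0.80 (SE 0.056, adjusted p = 7.21e-11), MCM6 at -0.78 (SE 0.057, adjusted p = 1.47e-10) and GINS2 at -0.70 (SE 0.067, adjusted p = 9.64e-09). RFC1 was furthest up, at 0.86 (SE 0.061, adjusted p = 9.02e-11), and was joined by the kinase CDC7 at 0.81 (SE 0.11, adjusted p = 1.23e-06) and by the origin recognition genes ORC4 at 0.62 (SE 0.078, adjusted p = 4.93e-07), ORC2 at 0.55 (SE 0.068, adjusted p = 4e-07) and ORC5 at 0.38 (SE 0.082, adjusted p = 0.000372). All 6 helicase subunits were lower with POLR1A depleted, although under mitochondrial scaling 1 was higher and 5 did not pass.

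Actinomycin D-treated cells had 42 members higher than POLR1A-depleted cells and 5 lower, where 24.4% of all genes tested were higher and 31.8% lower. In the members' level range 42.5% of protein-coding genes were higher and 38.1% lower, against 77.8% and 9.26% of the members. The split was 49 higher and 2 lower under mitochondrial scaling and 35 higher and 7 lower under library totals. The 6 helicase subunits were higher by log2 fold changes from 1.06 to 1.46 as reported, and were higher under each scaling tried. MCM6 led at 1.46 (SE 0.057, adjusted p = 3.11e-15), with 2.74-fold more CPM, followed by CDC45 at 1.31 (SE 0.094, adjusted p = 7.15e-11), POLD2 at 1.26 (SE 0.051, adjusted p = 6.64e-15), PRIM1 at 1.24 (SE 0.07, adjusted p = 1.46e-12) and MCM7 at 1.22 (SE 0.05, adjusted p = 7.21e-15). Furthest down were TICRR at -1.26 (SE 0.071, adjusted p = 1.41e-12) and DBF4 at -1.11 (SE 0.067, adjusted p = 4.46e-12). They were followed by GINS3 at -0.48 (SE 0.12, adjusted p = 0.00157), ORC4 at -0.30 (SE 0.074, adjusted p = 0.00179) and POLD3 at -0.27 (SE 0.09, adjusted p = 0.0143). These 3 turned higher, with no call, under mitochondrial scaling. POLD3 lost its call without POLR1A depletion replicate 3, at -0.21, and without actinomycin D replicate 1, at -0.23. Its call was also lost under DESeq2. Both POLD3 and ORC4 lost their calls under upper-quartile scaling and without the low-count filter.

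Against POLR2A-depleted cells, actinomycin D-treated cells had 38 members higher and 6 lower, where 31.1% of all genes tested were higher and 39.8% lower. In the members' level range 63.2% of protein-coding genes were higher and 20.5% lower, with a median of 0.35. Of the members 70.4% were higher and 11.1% lower, with a median of 0.40. The members' median thus stood close to that of coding genes of their level, with a smaller share lower. Under library totals alone the split was 30 higher and 16 lower, and under mitochondrial scaling 52 higher and 1 lower. Highest were RFC1 at 1.03 (SE 0.061, adjusted p = 4.13e-12), PRIM1 at 0.99 (SE 0.071, adjusted p = 9.43e-11), TIMELESS at 0.97 (SE 0.053, adjusted p = 1.08e-12), WDHD1 at 0.88 (SE 0.062, adjusted p = 5.38e-11) and GINS1 at 0.86 (SE 0.055, adjusted p = 1.13e-11). TICRR was 5.1-fold lower, at -2.35 (SE 0.071, adjusted p = 7.13e-17). Also lower were DBF4 at -0.98 (SE 0.069, adjusted p = 5.73e-11), GINS3 at -0.72 (SE 0.12, adjusted p = 2.12e-05), MCM10 at -0.38 (SE 0.061, adjusted p = 1.13e-05) and ORC6 at -0.36 (SE 0.079, adjusted p = 0.000378). These 4 turned higher under mitochondrial scaling, DBF4 with no call, whereas TICRR remained lower.

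**Figure D4:**
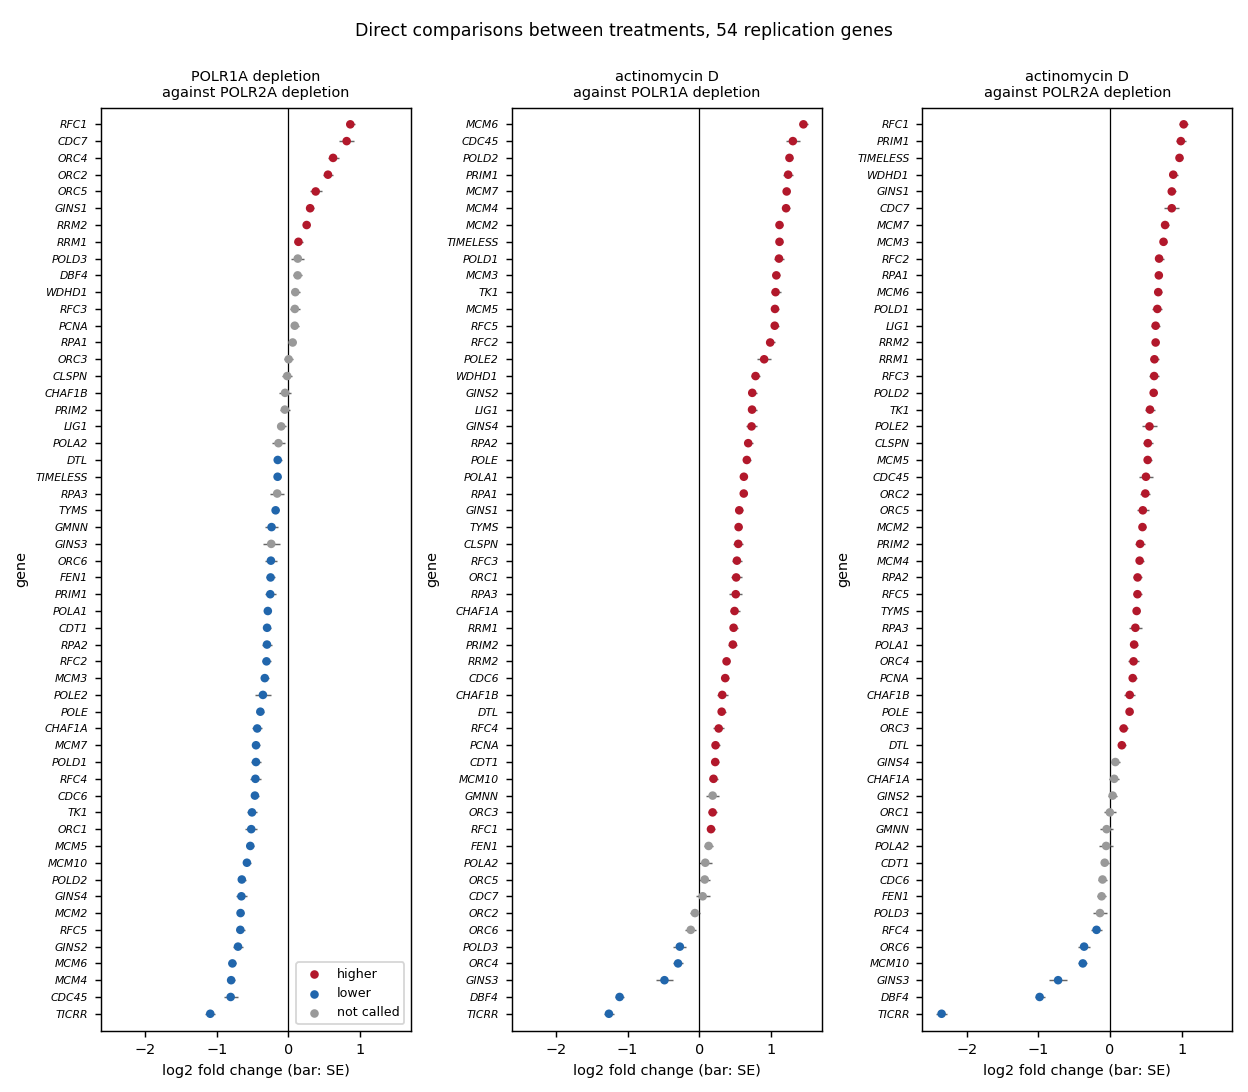
Log2 fold change with its SE (horizontal axis) of each of the 54 genes, ordered by value, for POLR1A depletion against POLR2A depletion, actinomycin D against POLR1A depletion and actinomycin D against POLR2A depletion; red and blue mark genes called higher and lower, grey those not called. In the middle panel 42 genes are called higher, with MCM6 on top, and TICRR is lowest in each panel.

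A further 46 genes of replication and S-phase entry, outside the 54, were read from the same fit. With POLR1A depleted 28 were lower and 8 higher (60.9% and 17.4%), with a median log2 fold change of -0.335. Among protein-coding genes of the 54 members' level range 31.1% were lower and 37.1% higher. With POLR2A depleted 21 were lower and 8 higher (45.7% and 17.4%, against 54.2% and 22.1% in that range), with a median of -0.13. With actinomycin D 14 were lower and 22 higher (30.4% and 47.8%, against 34.2% and 47%), with a median of 0.17. In the last 2 comparisons the shares were close to or below those of that range. The shares over all genes tested are those given above for the 54. CDC25A encodes the phosphatase that activates CDK2 at S-phase entry. It had 31.2, 34.5 and 32.8 CPM in POLR1A-depleted cells, 35.7, 33.3 and 32.3 CPM in POLR2A-depleted cells, 23.1, 21 and 22.7 CPM in actinomycin D-treated cells, against 73.1, 82 and 76.8 CPM in control cells. It was lower in all 9 treated libraries, at -1.23 (SE 0.069, adjusted p = 5.28e-12) under POLR1A depletion, -1.20 (SE 0.071, adjusted p = 5.25e-12) under POLR2A depletion and -1.80 (SE 0.071, adjusted p = 5.44e-15) under actinomycin D. CCNE1 and CCNE2 encode the E-type cyclins, partners of CDK2. CCNE1 had 17.9, 18.7 and 20.8 CPM in POLR1A-depleted cells, 43.6, 46.3 and 46.7 CPM in POLR2A-depleted cells, 18.1, 18.4 and 20.3 CPM in actinomycin D-treated cells, against 42.2, 47.4 and 40.8 CPM in control cells, at -1.18 (SE 0.082, adjusted p = 1.47e-10) with POLR1A depleted and -1.20 (SE 0.082, adjusted p = 4.25e-11) with actinomycin D, and its POLR2A-depleted libraries overlapped the controls. CCNE2 had 23.4, 22.2 and 25.2 CPM in POLR1A-depleted cells, 41, 39.7 and 44.5 CPM in POLR2A-depleted cells, 30.2, 25.2 and 29 CPM in actinomycin D-treated cells, against 52.9, 55.8 and 55.1 CPM in control cells, at -1.21 (SE 0.078, adjusted p = 5.25e-11) with POLR1A depleted, and it was called lower in all 3 comparisons. FBXO5 encodes EMI1, the inhibitor of the anaphase-promoting complex that lets geminin and cyclins build up. It had 5.61, 4.78 and 6.34 CPM in actinomycin D-treated cells, against 61.5, 60.8 and 58.5 CPM in control cells, which is 10.9-fold lower, at -3.44 (SE 0.10, adjusted p = 5.5e-17). FBXO5 averaged 32.4 CPM with POLR1A depleted and 55.4 CPM with POLR2A depleted, against 60.3 CPM in controls. RRM2B encodes the p53-induced small subunit that can replace RRM2 in ribonucleotide reductase. Its libraries had 211, 196 and 205 CPM in POLR1A-depleted cells, 93.4, 94.8 and 91.5 CPM in POLR2A-depleted cells, 111, 104 and 111 CPM in actinomycin D-treated cells, against 50.8, 58 and 56.5 CPM in control cells. It was 3.69-fold higher with POLR1A depleted, at 1.88 (SE 0.057, adjusted p = 3.25e-16), and its changes were 0.76 (SE 0.058, adjusted p = 3.6e-10) under POLR2A depletion and 0.98 (SE 0.057, adjusted p = 3.8e-12) under actinomycin D.

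With POLR1A depleted, the histone chaperone ASF1A and the small polymerase delta subunit POLD4 were the next highest of these genes, with ASF1A at 0.63 (SE 0.087, adjusted p = 4.04e-06) and POLD4 at 0.61 (SE 0.17, adjusted p = 0.00569). ASF1A averaged 22.2 CPM with POLR2A depleted and 33.5 CPM with actinomycin D, against 29.5 CPM in controls. POLD4 averaged 11.4 CPM with POLR2A depleted and 8.34 CPM with actinomycin D, against 8.89 CPM in controls. With POLR2A depleted, the origin timing factor RIF1 had 104, 94.5 and 111 CPM in POLR2A-depleted cells, against 267, 277 and 292 CPM in control cells, at -1.43 (SE 0.06, adjusted p = 2.62e-14), and the fork repair factor MMS22L had 54.8, 61.4 and 57 CPM in POLR2A-depleted cells, against 132, 121 and 133 CPM in control cells, at -1.16 (SE 0.063, adjusted p = 1.41e-12). ASF1B, the paralog of ASF1A, was higher there with 124, 127 and 115 CPM in POLR2A-depleted cells, against 59.3, 64.3 and 51.3 CPM in control cells, at 1.07 (SE 0.071, adjusted p = 3.67e-11). RIF1 averaged 188 CPM with POLR1A depleted and 142 CPM with actinomycin D, also below its control mean of 279 CPM. MMS22L averaged 101 and 107 CPM in these groups, below its control mean of 129 CPM. ASF1B averaged 45.8 CPM with POLR1A depleted and 83.2 CPM with actinomycin D, against 58.3 CPM in controls. With actinomycin D, SAMHD1, which breaks down deoxynucleotides, was higher at 0.87 (SE 0.068, adjusted p = 3.96e-10), and DUT, which removes dUTP, at 0.76 (SE 0.14, adjusted p = 0.000597). SAMHD1 averaged 57 CPM with POLR1A depleted and 51.3 CPM with POLR2A depleted, also above its control mean of 39.4 CPM. DUT averaged 24.5 CPM with POLR1A depleted and 41.1 CPM with POLR2A depleted, against 38 CPM in controls.

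The members' genes spanned from 4608 to 332045 bases in GENCODE 29, with a median of 33725.5 bases. With POLR1A depleted, the 27 genes above that median had a median log2 fold change of -0.46 and the other 27 a median of -0.65. With POLR2A depleted the order was the other way, at -0.38 for the longer and -0.21 for the shorter genes, with 16 lower and 4 higher in each set. Other protein-coding genes tested had the same order. Their medians were -0.145 for the longer and 0.0391 for the shorter ones with POLR2A depleted, and 0.105 and 0 with POLR1A depleted. In the direct comparison of POLR1A with POLR2A depletion, 22 of the 27 shorter members were lower and 2 higher, against 10 lower and 6 higher among the 27 longer ones. Among other protein-coding genes tested, 34.4% of the shorter and 26.5% of the longer ones were lower in that comparison. With actinomycin D the longer members had a median of 0.092 and the shorter ones of 0.30, against 0.0776 and 0.0456 among other protein-coding genes. In all, 20 members share exon sequence with a gene on the opposite strand, 7 with a gene on the same strand, and 9 have named pseudogenes.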

How the data were processed

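Per the labels' protocols, rRNA-depleted stranded total RNA libraries were made from dishes of 4 groups of 3. The authors deposited estimated counts per gene (expected counts, 76.07% of values whole). The submitters' processing notes name GRCh38, STAR, RSEM 1.3.3 and HTSeq 2.0.2 without roles. Neither the strand setting nor the annotation release was stated.

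Counts were rounded and tested in R 4.3.3 with edgeR 4.0.16 in 1 fit over 12 libraries (filterByExpr, TMM scaling, group means, robust quasi-likelihood test), with Benjamini-Hochberg adjustment over the 23593 genes of each of 6 comparisons and a call at an adjusted p of 0.05. The procedure was also run on simulated counts with known changes in few genes. That run cannot test the scaling, and its outcome is not given here. SE is the absolute log2 fold change divided by the square root of F. Positions, exon overlaps and spans are from GENCODE 29, and promoters from RefSeq on GRCh38.p14.

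The members, the lists and the rule for named genes were chosen with earlier results of these data known. The rule named, against controls, up to 3 called members per role group with the largest change and the 3 highest and 3 lowest of the other 46 genes, and, between treatments, the 5 highest and 5 lowest called members. The values of 1 gene that the rule named are not reported here. Library replicates were compared within groups, and no 2 agreed within sampling noise. Alternatives were DESeq2 1.42.0, library totals, upper-quartile and mitochondrial scaling, no low-count filter, fits of 2 groups, a replicate block and each library left out.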

Additional observations from a re-analysis of the deposited data

How the results depend on the processing

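Relative scaling limits these results, since no spike-in ties the libraries together. Member counts that moved by more than 1.5 times were as follows. Scaled to mitochondrial mRNAs, 18 members were lower with POLR1A depleted against controls, 0 were higher with POLR2A depleted, and 45 were higher and 4 lower with actinomycin D. In the same scaling 34 were higher and 1 lower with POLR1A against POLR2A depletion, 2 were lower with actinomycin D against POLR1A depletion and 1 with actinomycin D against POLR2A depletion. Upper-quartile scaling gave 21 higher and 21 lower with POLR2A depleted, 4 higher with POLR1A against POLR2A depletion, and 3 and 10 lower with actinomycin D against POLR1A and against POLR2A depletion. Without the low-count filter 3 were lower with actinomycin D against POLR1A depletion, and under library totals 16 were lower with actinomycin D against POLR2A depletion. Leaving out single libraries gave 3 to 6 members higher with POLR1A depleted, where 5 were reported. These alternatives change the scale itself or which genes set it; the cause of the differences between scales was not tested.

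Of 119 named log2 fold changes, 118 kept their direction and call under DESeq2, 118 under library totals, 116 without the filter, 119 in fits of 2 groups, 113 under upper-quartile scaling and 90 under mitochondrial scaling. Of 714 values with a library left out, 712 did so. Upper-quartile scaling turned MCM6 and MCM7 with POLR2A depleted to 0.029 and 0.031. Mitochondrial scaling turned RRM2 with POLR1A depleted to 0.14. It turned these with actinomycin D against controls: CHAF1A to 0.36, DTL to 0.26, CDC6 to 0.35, ORC5 to 0.28, ORC6 to 0.43 and POLD3 to 0.028. With actinomycin D against POLR1A depletion it turned GINS3 to 0.073, ORC4 to 0.27 and POLD3 to 0.29, all with no call. Against POLR2A depletion it turned DBF4 to 0.23 with no call, GINS3 to 0.47, MCM10 to 0.82 and ORC6 to 0.85.

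The groups share replicate numbers, but same-numbered libraries did not deviate together: 2 of 18 such pairs had a correlation of deviations over 0.1 (median -0.0455), against 5 of 36 pairs with different numbers (median 0.0265). With the replicate number as a block, 43 members were lower and 5 higher with POLR1A depleted, 31 lower and 9 higher with POLR2A depleted, and 19 lower and 28 higher with actinomycin D, and all 119 named changes kept their call. At 11289272 to 27394059 counts per library no member was at the filter's floor, and members that did not pass are not shown to be unchanged.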
